A study of Mus musculus with 24 samples.

Results

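The 4 neurofilament genes Nefl, Nefm, Nefh and Ina were taken by symbol from the 54235 features of single-cell RNA libraries of mouse motor cortex and dorsal striatum, and all 4 symbols were found. Mice were trained to reach with a forelimb for 2 days (early) or 8 days (late), or were not trained (control), and cells were labelled by 4-hydroxytamoxifen (4-OHT), which activates an inducible Cre recombinase that switches on the Ai9 reporter. Motor cortex came from Fos-CreER::Ai9 mice and dorsal striatum from Arc-CreER::Ai9 mice, so that region and driver cannot be told apart. Each pool joined 2 mice whose tissue was collected 3 days after 4-OHT, with a library for either hemisphere, so that 24 libraries came from 12 pools, 2 for each region and stage. Control mice also received 4-OHT, so every group carried the Cre driver, the reporter and the inducer. The age of the mice is not given in the sources used here. In Fos-CreER and Arc-CreER mice the promoter of an activity-induced gene drives the recombinase, so labelling depends on that gene's activity in each cell.

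Neurofilaments are the intermediate filaments of neurons and run along the axon, where they set its calibre. The light chain, encoded by Nefl, forms the core on which the medium (Nefm) and heavy (Nefh) chains assemble, and both of those carry long tails that are phosphorylated in axons. Alpha-internexin, encoded by Ina, joins the filaments of central neurons and appears early in neuronal development. Large projection neurons and fast-spiking interneurons are known for high neurofilament content.

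In the GENCODE M21 annotation of GRCm38, Nefl lies on chromosome 14 from 68083863 to 68089095 on the forward strand, and Nefm on chromosome 14 from 68082590 to 68124846 on the reverse strand. The long Nefm interval comes from 1 of 2 annotated transcripts and contains Nefl, with 1108 bases of exon shared by the pair on opposite strands. Whether the counting used strand is not given in the sources used here, so reads from the shared bases of Nefl and Nefm could be uncertain. Nefh lies on chromosome 11 from 4938754 to 4948064 on the reverse strand in 4 exons, and Ina on chromosome 19 from 47014698 to 47025327 on the forward strand in 3 exons. All 4 genes are protein coding.

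The Ina promoter was the 1 promoter of the 4 genes found in the RefSeq table used here, and it is shown because Ina was detected in each neuron type described below. It is the 250 bases before the RefSeq start in GRCm38.p6, chr19:47014431-47014680 on the forward strand, and the capitals mark the GC box GGGCGG, searched on both strands.
Ina promoter: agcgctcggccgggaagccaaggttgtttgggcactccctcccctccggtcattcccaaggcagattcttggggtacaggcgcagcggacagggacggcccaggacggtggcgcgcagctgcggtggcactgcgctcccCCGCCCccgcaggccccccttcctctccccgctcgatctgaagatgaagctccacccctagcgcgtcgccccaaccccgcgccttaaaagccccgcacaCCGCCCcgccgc
The sequence is 70.8% G and C and holds the GC box 2 times, both on the reverse strand. Of 32851 promoters of the same length, 32.7% held GGGCGG, 33.9% held CCAAT and 12.4% held TATAAA on either strand. The Ina window held neither of the last pair of motifs.

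Counts came from 23 libraries, since 1 library of striatal control replicate 1, its right side, was not used here. Libraries held 5260446 to 30470621 UMIs (unique molecular identifiers, each standing for 1 captured RNA molecule) and 467 to 6685 kept cells with medians of 1978.5 to 5588.5 UMIs. Barcodes shared between libraries separated the pools into 2 classes, A and B, read here as kit versions. Each region had 2 pools of class A, control replicate 1 and late replicate 1, and the early pools were of class B. The labels give the flow cell as a batch. In each region the 2 class A pools shared 1, control replicate 2 and early replicate 1 shared another, and the other 2 pools had 1 each, so a fit with both stage and flow cell leaves no residual degrees of freedom. At most 148 barcodes were shared by 2 libraries. Kept cells numbered 99627, of which 55574 were neurons or neuronal precursors. Cell type names below stand for clusters that are like that type by its markers, and the 4 genes and the reporter were left out of the clustering. Spiny neurons called D1 had Drd1 at 504 and Tac1 at 3735 CPM (a gene's UMIs as a share of all UMIs, scaled to the same fixed total), those called D2 had Adora2a at 1044 and Penk at 6621, and cortical parvalbumin interneurons had Pvalb at 2804. The striatal group called parvalbumin interneurons had Pvalb at 524, Pthlh at 668 and Cox6a2 at 854 CPM. Its other markers Syt2 and Mybpc1 stood at 4.48 and 2.02, against 212 and 21.9 in the cortical group.

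Levels are CPM over the summed cells of a type in a pool, given as the mean ± SD over pools with at least 20 cells of the type. Since levels by neuron type chose these genes, they are a description, with no test. Across 24 neuron types with at least 2 such pools, Nefl was highest in D1 spiny neurons of the striatum, the direct-pathway projection neurons, at 404 ± 61.6 CPM (SD, n = 6). The 6 D1 values were 328 and 385 in control, 458 and 468 in early and 339.5 and 445 in late pools. The values under 350 came from the 2 class A pools. D2 spiny neurons, the indirect-pathway projection neurons, had 188 ± 27.7 CPM of Nefl (SD, n = 6), with a highest pool of 216, below the lowest D1 pool. Eccentric spiny neurons, another spiny type, marked by Otof, had 73.7 ± 11.2 CPM (SD, n = 6), below every D1 and D2 pool.

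In motor cortex, Nefl levels were nearly level across layer 2/3 (334 ± 57.1 CPM, SD, n = 6), layer 6 corticothalamic (333 ± 65.3) and layer 6 intratelencephalic neurons (333 ± 78.1), and the ranges of these types overlapped. Rorb-positive neurons of layers 4 and 5 had 243 ± 55.9 CPM (SD, n = 6), and near-projecting neurons had 64.6 ± 12.5 (SD, n = 6). The lowest neuronal level of Nefl was 2.79 ± 1.53 CPM (SD, n = 6) in Lamp5 interneurons, against 22.4 ± 8.25 in Vip and 132 ± 24.8 (SD, n = 5) in parvalbumin interneurons of cortex. A Nefl UMI was found in 71.1% of D1 cells at a median of 4860 UMIs per cell, and in 1.11% of striatal microglia at a median of 1822. Lamp5 interneurons had a Nefl UMI in 1.92% of cells at a median of 7145 UMIs, and cortical microglia in 1.59% at a median of 1824. The Lamp5 level of Nefl lay below the 8.67 ± 3.50 CPM of cortical microglia (SD, n = 6).

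Layer 5 neurons marked by Fezf2 and Bcl11b, the long-range output neurons of motor cortex, had 4 to 17 cells per pool and fell under the minimum of 20. Their Nefl values in the 6 pools were 766 and 879 in control, 670 and 567 in early and 642 and 604 CPM in late pools. Each of these lies above every D1 pool. Neurons of the claustrum or Car3 type, another cortical group, had 8 to 27 cells per pool and also lay above every D1 pool, at 503 to 684 CPM of Nefl from 41 to 146 UMIs per pool. They reached the minimum in 1 pool, early replicate 2, at 505 CPM. Nefh in the layer 5 cells was 144 to 364 CPM, from 16 to 51 UMIs per pool, so these levels rest on few molecules.

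Among the same 24 types Nefm, the medium chain, was also highest in D1 spiny neurons, at 221 ± 66.3 CPM (SD, n = 6). Corticothalamic neurons followed at 172 ± 49.5, Rorb neurons at 154 ± 59.3, layer 2/3 at 141 ± 47.2 and D2 spiny neurons at 137 ± 49.7 CPM (SD, n = 6 each), with overlapping ranges. Nefm varied with the kit class more than the other chains. D1 pools of class A averaged 143 CPM and those of class B 260, and corticothalamic pools averaged 112 and 203. Over 23 types with class A pools, the median ratio of the class A level to the level over all pools was 0.648 for Nefm, 0.834 for Nefl, 0.897 for Nefh and 0.960 for Ina.

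Nefh, the heavy chain, had a different order. Among the 24 types its highest levels were in cortical parvalbumin interneurons, the fast-spiking inhibitory neurons (117 ± 40.3 CPM, SD, n = 5), and in the striatal group of that name (88.0 ± 25.4, SD, n = 6). The cortical values ranged from 69.8 to 163 CPM and the striatal values from 51.8 to 113, so the regions overlapped. Unnamed striatal interneurons had 62.4 ± 19.2, striatal cholinergic neurons 36.7 ± 14.9 and cortical somatostatin interneurons 35.6 ± 4.39 CPM (SD, n = 6 each). D1 spiny neurons stood at 13.7 ± 2.51 and corticothalamic neurons at 18.1 ± 2.83 CPM (SD, n = 6 each). The few layer 5 cells below the minimum, at 144 to 364 CPM, stood above most pools of parvalbumin interneurons. Nefh was detected in 48.0% of cortical parvalbumin cells and in 6.98% of D1 cells. The former were deeper, at pool medians of 5770 to 12824.5 UMIs against 2856 to 6443. Striatal neuroblasts, the migrating immature neurons, had 0.630 ± 0.466 CPM of Nefh (SD, n = 6), near the 0.603 of striatal microglia, and no Nefh UMI was found in cortical neuroblasts.

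Ina was found across neuron types with a narrower range. Its level was 447 ± 18.6 CPM in corticothalamic neurons (SD, n = 6), 360 ± 44.1 in cortical parvalbumin interneurons (SD, n = 5), 327 ± 26.4 in near-projecting and 270 ± 12.1 in layer 6b neurons (SD, n = 6 each). D2 spiny neurons had 235 ± 65.4 and D1 spiny neurons 205 ± 44.6 CPM of Ina (SD, n = 6 each), the reverse of the order of the 2 types for Nefl, with overlapping ranges. Lamp5 interneurons, the lowest type for Nefl and Nefm, had 241 ± 23.6 CPM of Ina (SD, n = 6). Neuroblasts had 184 ± 38.1 CPM of Ina in cortex (SD, n = 4) and 89.8 ± 44.0 in striatum (SD, n = 6), and cycling progenitors had 12.7 ± 1.95 (SD, n = 4).

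**Figure D1:**
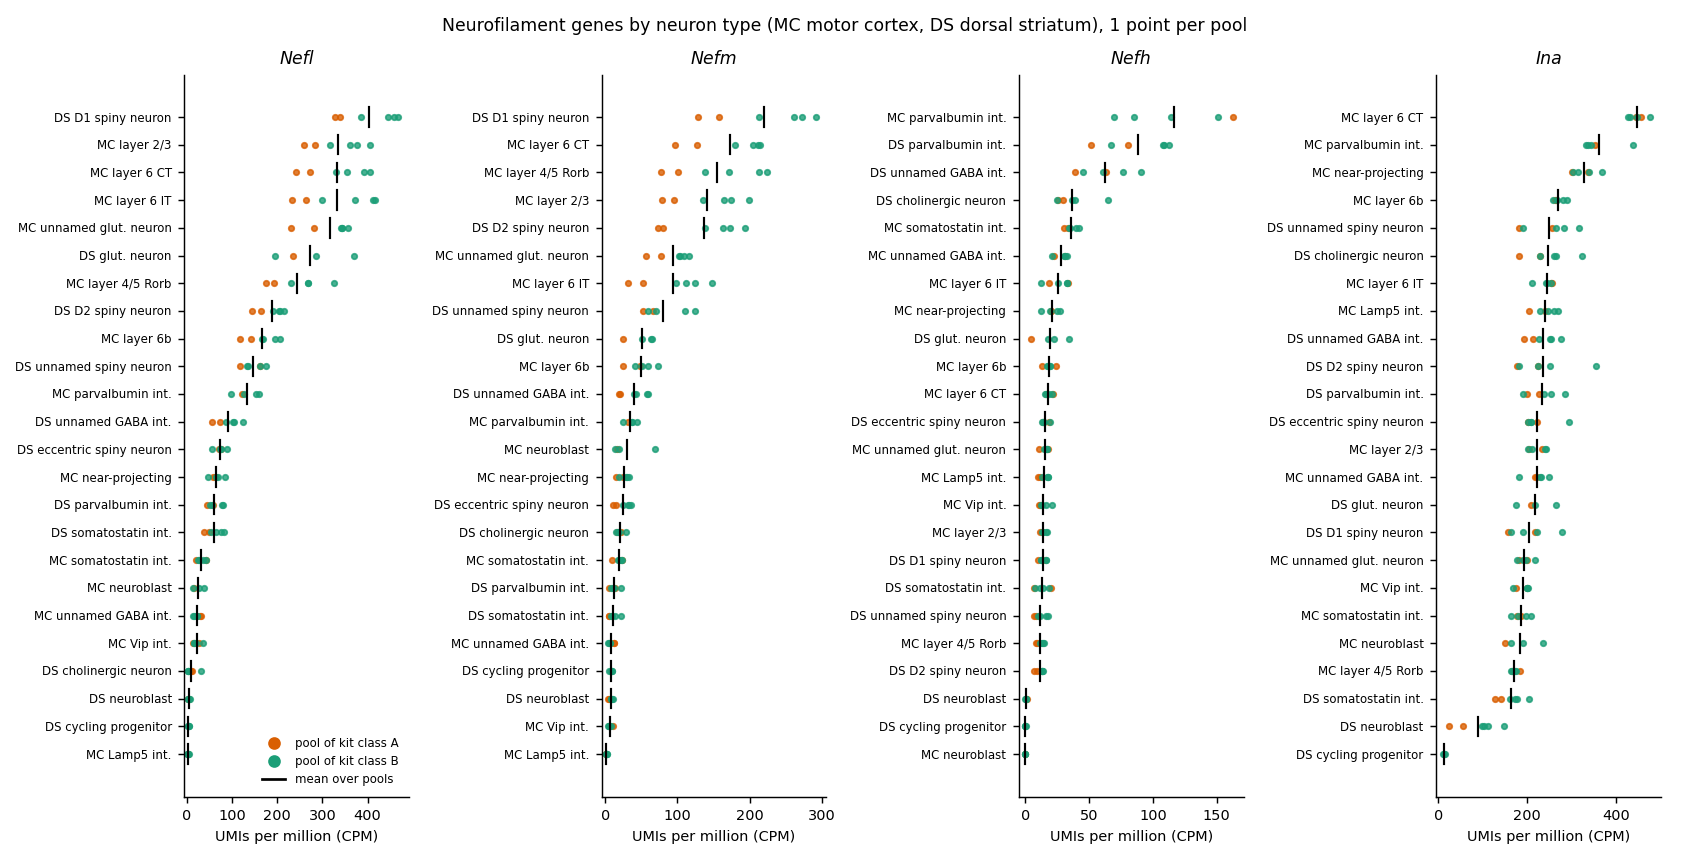
Level of each neurofilament gene in CPM (x axis) by neuron type (y axis, sorted by mean), with 1 point per pool coloured by kit class and a black bar for the mean over pools. Nefl and Nefm are highest in D1 spiny neurons, Nefh in parvalbumin interneurons and Ina in corticothalamic neurons among the types plotted, which leave out those with under 2 pools of 20 cells, and class A pools lie low for Nefm.

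Between neighbours in these orders, the ranges over pools did not overlap in 0 of 23 cases for Nefl, 1 for Nefm, 1 for Nefh and 2 for Ina. For Nefh that gap lay between D2 spiny neurons and striatal neuroblasts, and for Ina between near-projecting and layer 6b neurons and between striatal neuroblasts and progenitors. Across the 24 types, neuroblasts and cycling progenitors included, the levels of Nefl and Nefm followed each other (Pearson r of 0.89 on log2(CPM + 1), Spearman rho of 0.94). For Nefh and Ina r was 0.66 and rho 0.56, and for Nefm and Nefh they were 0.13 and -0.07. For Nefl and Nefh they were 0.39 and 0.06, so r and rho differed most where Nefh, near 0 in the precursors, was set against Nefl. These values describe types that share libraries and depth, and no test was made. By the rule of the 5 most similar genes among 11133, the profile of Nefl was most like those of Chn1, Fam234b, Nefm, Sirpa and Tacc1, with r from 0.87 to 0.89. For Nefm they were Nefl, Ttl, Gm19410, Atp9b and Rgs14, for Nefh Acsl6, Got2, Tmx2, Rab11fip5 and Sirt3, and for Ina Ak1, Aatk, Rab3a, Rab4a and Sgip1.

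Within D1 spiny neurons the sub-clusters differed in both Nefl and Nefm. Nefl stood at 503 CPM in sub-cluster 0 (2291 cells, led by Gpr155, Gpr139 and Ddit4l) and 599 in sub-cluster 1 (1930 cells, led by Crym, Ebf1 and Id4), against 280 in sub-cluster 4 (1565 cells) and 285 in sub-cluster 8 (1309 cells). The pools of sub-clusters 0 and 1 ranged from 391 to 696 CPM and those of 4 and 8 from 200 to 343, with no overlap. Nefm was 395 CPM in sub-cluster 0, 206 in sub-cluster 1, 205 in sub-cluster 4 and 93.6 in sub-cluster 8. The smaller D1 sub-clusters 12 (622 cells) and 18 (450 cells) had 241 and 201 CPM of Nefl with 71.2 and 79.8 of Nefm, and sub-cluster 22 (90 cells) had 561 of Nefl with 390 of Nefm. Both genes were thus higher in sub-clusters 0 and 22 than in 8, 12 and 18, while sub-clusters 1 and 4 had nearly the same Nefm at different Nefl. Among D2 sub-clusters Nefl ran from 76.3 to 265 CPM. Sub-clusters 11, 15, 17 and 18 held 95.2% to 97.8% of their cells from class A pools, so kit and sub-cluster cannot be told apart there.

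**Figure D2:**
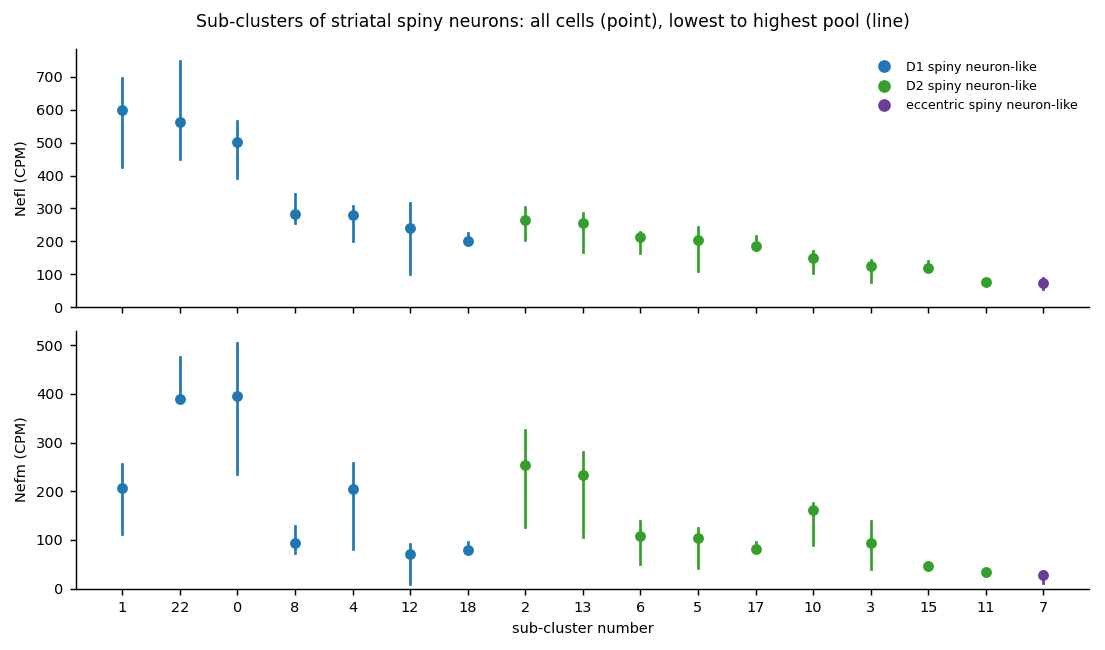
Nefl (top) and Nefm (bottom) in CPM (y axis) for each sub-cluster of striatal spiny neurons (x axis), as the level over all cells (points) and the span of pools with at least 20 cells (lines). D1 sub-clusters 0 and 1 stand at 503 and 599 CPM of Nefl, while Nefm is 395 and 206 CPM in the same pair.

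Reporter-positive neurons were those with at least 1 UMI of wpre, the viral element in the reporter transcript, or of tdtomato. In spiny neurons 16.3% to 22.3% of cells per pool were positive, nearly all through wpre (19.2% of cells on average, against 1.77% for tdtomato), at pool medians of 2536 to 5847 UMIs. Among striatal cells that are not neurons, microglia were positive in 2.61% to 8.42% of cells at medians of 1206 to 2315 UMIs, astrocytes in 15.1% to 43.0%, endothelial cells in 20.5% to 31.9%, pericytes in 26.0% to 31.5% and fibroblasts in 17.0% to 55.8%. The share in spiny neurons thus lay above that of microglia but not above that of the other 4 types, whose median depths, at 1143 to 2602.5 UMIs, were mostly lower. In motor cortex glutamatergic neurons were positive in 13.6% to 29.4% of cells, microglia in 2.51% to 8.94%, astrocytes in 16.2% to 33.5% and fibroblasts in 26.4% to 47.6%. A reporter UMI in a neuron is therefore not shown to mark a labelled cell, and positive and negative below mean only with and without such a UMI. Control spiny neurons were positive in 22.3% and 20.4% of cells and trained ones in 16.3% to 21.8%, so the highest share was in a control pool.

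In trained striatal pools, Nefl, Nefm and Ina were higher in reporter-positive than in negative spiny neurons in 4 of 4 pools, by small amounts. These 4 genes were chosen on this contrast, so the values describe it and no test was made. Nefl stood at 340.1 CPM in positive and 313 in negative cells of early replicate 1, 333 and 298 in early replicate 2, 238 and 215 in late replicate 1, and 296 and 277 in late replicate 2. The log2 ratio was 0.10 to 0.16, with a mean of 0.13 ± 0.03 (SD, n = 4). Nefm stood at 215 and 202, 214 and 192, 106 and 87.4, and 227 and 203 CPM in the same order of pools. Its log2 ratio was 0.09 to 0.27, with a mean of 0.17 ± 0.07 (SD, n = 4). Ina had a mean log2 ratio of 0.13 ± 0.09, from 0.02 to 0.21 (SD, n = 4). Nefh, from 26 to 80 UMIs in positive cells per pool, was higher in 1 of 4 pools, with log2 ratios from -0.22 to 0.23. Positive cells had median counts of 2699 to 5871 UMIs and negative cells 2508 to 5499, higher among positive cells in each of the 4 pools.

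Within single spiny types the number of pools sharing the direction differed by gene. In D1 neurons alone Ina had a mean of 0.14 and was higher in 4 of 4 pools, while the means of 0.09 for Nefl and 0.16 for Nefm came with 3 of 4 pools each. In D2 neurons alone Ina (mean 0.17) and Nefl (0.12) were higher in 4 of 4 pools and Nefm (0.11) in 3. In unnamed spiny neurons Ina (0.26) was higher in 4 of 4 pools and Nefl (0.27) and Nefm (0.27) in 3 each. In eccentric spiny neurons Ina had a mean of -0.45 ± 0.61 (SD, n = 4) and was higher in 1 of 4 pools, Nefl was higher in 3 and Nefm in 2. With cells thinned to 2000 UMIs, Nefl and Ina were each higher in 3 of 4 pools. The ratio was larger for Nefl and Nefm when positivity needed 2 reporter UMIs (means of 0.24 and 0.40, higher in 4 of 4 pools). Holding the mix of spiny sub-clusters fixed gave means of 0.11 for Nefl, 0.17 for Nefm and 0.12 for Ina. Markers of cortical glutamatergic neurons, at 1.44 to 2.05 CPM summed over 6 genes in positive and 1.53 to 2.57 in negative spiny neurons, were near 0 in both.

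**Figure D3:**
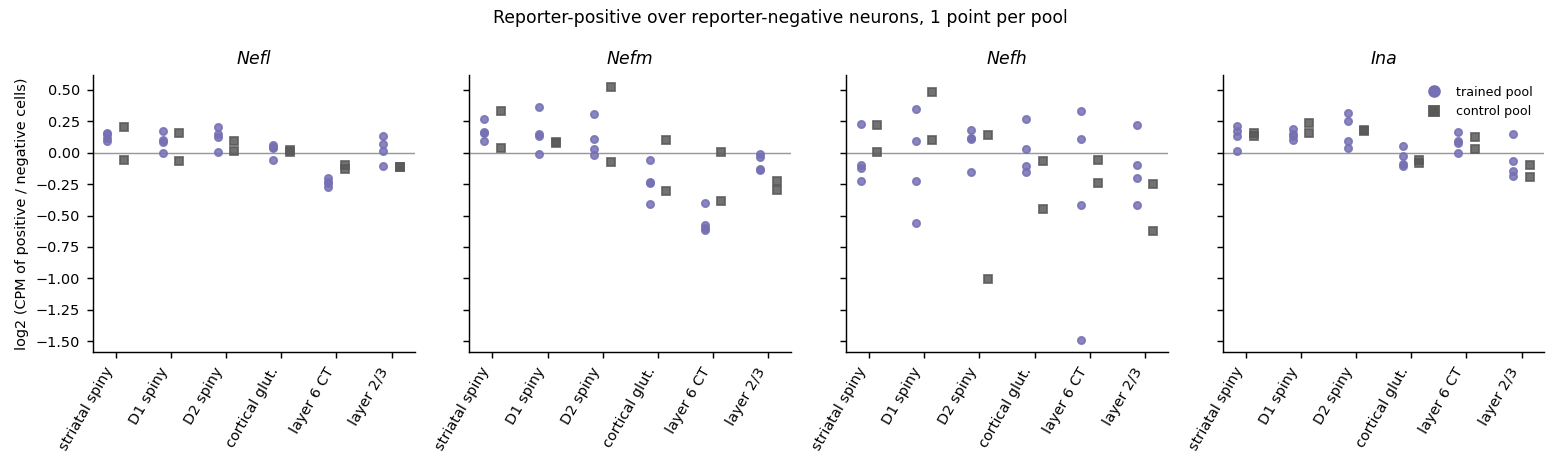
Log2 ratio of the level in reporter-positive to reporter-negative neurons (y axis) for each gene and neuron group (x axis), 1 point per pool, circles for trained and squares for control pools. Nefm lies below 0 in all 4 trained pools of corticothalamic neurons and above 0 in all 4 trained pools of striatal spiny neurons.

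In control striatal spiny neurons, whose 2 pools leave 1 residual degree of freedom in edgeR's quasi-likelihood test with the pool as a block, none of 12 tests of the 4 genes passed an adjusted p of 0.05 (3 at an unadjusted p under 0.05, and 0 in DESeq2). Over all genes 0.104% of tests were called. Ina had a log2 change of 0.15 (SE 0.054, adjusted p 1.000 in edgeR), higher in 2 of 2 pools, with values of 242 and 227 CPM in positive and 218 and 207 in negative cells. The changes of Nefl, Nefm and Nefh in all spiny neurons were 0.04, 0.12 and 0.17. Activity-induced genes were called higher in the same fit, with 4 of 8 in all spiny neurons. Fos rose by 0.37 (SE 0.052, adjusted p 6.75e-04), Fosb by 0.40 (adjusted p 0.00374), Nr4a1 by 0.30 (adjusted p 0.00675) and Npas4 by 0.32 (adjusted p 0.0383), and all 4 encode transcription factors induced by activity.

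In motor cortex the reporter contrast was not used to choose the genes, and it was tested in the 4 trained pools, each pool entering as a block, in edgeR's quasi-likelihood test with Benjamini-Hochberg adjustment. Of 24 tests of the 4 genes 3 were called, all lower in positive cells (6 at an unadjusted p under 0.05, and 2 called in DESeq2). Nefm fell by 0.54 in corticothalamic neurons (SE 0.062, adjusted p 1.28e-12 in edgeR), and Nefl fell by 0.21 (SE 0.045, adjusted p 8.31e-04). In all glutamatergic neurons Nefm fell by 0.22 (SE 0.037, adjusted p 5.86e-06). That group joins types that differ in reporter share and in Nefm, and the mix of types was not held fixed. Among types with 20 positive cells in all 4 trained pools, the mean log2 ratio of Nefm was -0.55 in corticothalamic and -0.30 in unnamed neurons. It was -0.08 in layer 2/3, 0.02 in layer 6b and 0.07 in Rorb neurons. The background was 2.07% of 12563 genes called in corticothalamic neurons, 0.533% called lower, and 5.98% of 16251 in all glutamatergic neurons, 2.50% called lower. Over all 6 cell groups tested it was 1.84%.

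Nefm in corticothalamic neurons stood at 134 CPM in positive and 199.9 in negative cells of early replicate 1, 143 and 217 in early replicate 2, 77.3 and 102 in late replicate 1, and 149 and 228 in late replicate 2. Positive cells were lower in each pool, and late replicate 1, of class A, had the lowest levels of both. Nefl stood at 299.7 and 345, 309 and 364, 207 and 251, and 341 and 403 CPM in the same order. Ina was not lower in these positive cells, with a log2 change of 0.10 (SE 0.039, adjusted p 0.172). Nefh had 5 to 42 UMIs in positive cells per pool and a change of -0.08 (SE 0.177). In layer 2/3, Rorb, layer 6b and unnamed glutamatergic neurons none of the 4 genes was called, with changes from -0.17 to 0.38. Nefm in unnamed glutamatergic neurons, at -0.17 (adjusted p 0.571 in edgeR), was called without early replicate 1 (-0.42, adjusted p 0.0292).

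**Figure D4:**
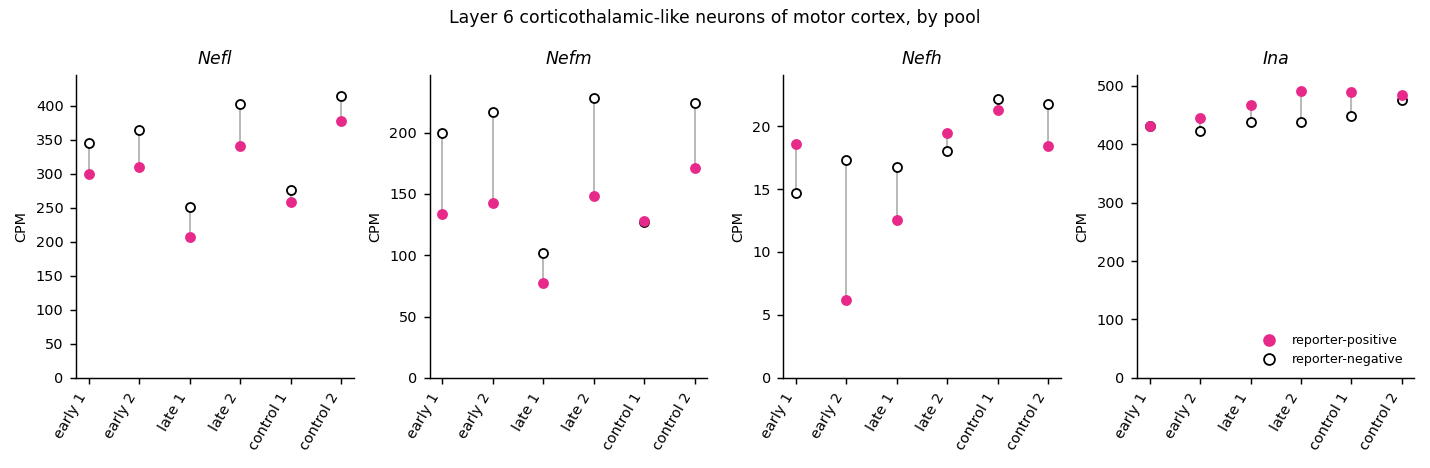
Level in CPM (y axis) of each gene in reporter-positive (filled) and reporter-negative (open) corticothalamic neurons for each motor cortex pool (x axis), joined by a line. For Nefm the positive cells lie under the negative cells in the 4 trained pools, at 77.3 to 149 against 102 to 228 CPM.

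Positive corticothalamic cells were also deeper, with pool medians of 6645 to 15381.5 UMIs against 5134 to 12956 in negative cells. With cells thinned to 2000 UMIs, the change of Nefm was -0.46 at an adjusted p of 0.0615 and that of Nefl -0.17 at 0.633, and with positivity at 2 reporter UMIs they were -0.27 at 0.808 and -0.12 at 0.924. Without the pool as a block no call was left (adjusted p of 1.000 for both), but that fit ignores that positive and negative cells come from the same pools. Sub-clusters of corticothalamic neurons differed in both quantities. Sub-cluster 4 had 319 CPM of Nefm and 14.7% reporter-positive cells, and sub-cluster 1 had 78.8 CPM and 22.7%. Sub-clusters 15 (275 CPM, 8.07%) and 22 (61.8 CPM, 18.5%) went the same way. Sub-clusters 16 (279 CPM, 19.8%) and 7 (111 CPM, 15.5%) did not. Weighting sub-clusters by their positive cells, a calculation chosen after seeing the data, gave a mean log2 ratio of -0.38 for Nefm, against -0.55 ± 0.10 (SD, n = 4) over all cells, and -0.14 for Nefl, against -0.24 ± 0.03.

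In the 2 control pools of motor cortex, the log2 ratio of Nefm in corticothalamic neurons was 0.01 and -0.39 and that of Nefl -0.10 and -0.13. A term for training over all 6 pools, also added after seeing the data, was -0.26 for Nefm (SE 0.105, adjusted p 0.754 in edgeR) and -0.10 for Nefl (SE 0.077, adjusted p 0.928). The difference between trained and control pools was therefore not called.

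Other cytoskeletal genes moved in both directions in the cortical reporter contrast. Of 26 genes of the axonal cytoskeleton and transport, 7 were called higher and 3 lower in all glutamatergic neurons, where 5.98% of all genes were called. The median of the 26 was -0.01 against 0.00 over all genes. Among those higher were the tubulins Tubb2a (0.14), Tuba1a (0.12), Tubb3 (0.11) and Tuba4a (0.10), Stmn2 (0.14), which regulates microtubules, and the growth cone proteins Basp1 (0.09) and Gap43 (0.08). Those lower were Dst (-0.12) and Macf1 (-0.11), which link filaments and microtubules, and Ank3 (-0.11), a scaffold of the axon initial segment. In corticothalamic neurons 4 of the 26 were called higher (Tubb2a, Tuba1a, Stmn2 and Gap43) and 0 lower, where 2.07% of all genes were called. Among genes of neurofilament phosphorylation and turnover, Uchl1, a ubiquitin hydrolase, was called higher in all glutamatergic neurons (0.13). None of the other intermediate filament genes tested was called.

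Several markers of cell types moved in the same contrast. Of the lists for other cells, the interneuron genes Nxph1 (-1.42) and Pvalb (-1.23) and the neuroblast gene Cd24a (-1.01) were called lower in positive glutamatergic neurons, and the interneuron gene Npy higher (0.39). Of 6 markers of glutamatergic neurons themselves, the vesicular transporter Slc17a6 was called lower (-0.54). Summed over 9 genes, interneuron markers stood at 30.6 to 70.0 CPM in positive and 52.3 to 72.0 in negative glutamatergic neurons, lower in positive cells in 4 of 4 pools. In corticothalamic neurons the same sum was 14.6 to 37.0 and 14.1 to 25.5 CPM, and no gene of that list was called. Their part in the result for all glutamatergic neurons was not tested. Of 8 activity-induced genes, Junb was called higher in all glutamatergic (0.15) and in corticothalamic neurons (0.18), and Arc lower in corticothalamic neurons (-0.20).

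Training stage was tested over the 6 pools of a region with the kit class as a covariate. Of 273 tests of the 4 genes 1 was called, in unnamed striatal spiny neurons (12 at an unadjusted p under 0.05, and 0 called in DESeq2). The background was 0.0442% of all tests called in striatum and 0.00107% in cortex. In those unnamed cells Nefm was higher in early than in control pools, by 1.03 (SE 0.193, adjusted p 0.0209 in edgeR), beside 0.205% of 11243 genes called. The values were 52.2 and 58.7 CPM in control, 111 and 124 in early, and 66.1 and 70.6 in late pools. Both early pools lay above the other 4, and the early pools were all of class B.

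The unnamed spiny neurons are a mixed group of 2456 cells at pool medians of 1782.5 to 2680.5 UMIs, and their largest sub-cluster was led by haemoglobin genes and had a median of 1589.5 UMIs. That sub-cluster held 53.2% and 55.4% of the cells in early pools, 20.1% and 49.2% in control and 25.2% and 46.5% in late pools. Within it, Nefm was 70.3 (5 UMIs) and 97.1 CPM in control, 174 and 201 in early and 115 and 138 in late pools. The call was lost with no filter on low counts (adjusted p 0.956), with the strict cell filter (0.110), without the kit covariate (0.833), with the replicate number as a block in its place (0.654) and without dorsal striatum control replicate 2 (0.318), while the change in these fits was 0.88 to 1.09. Replicates were numbered in record order, so the replicate block pairs no pools and its fit decides nothing. Over the 6 fits that left out 1 pool the change was 0.94 to 1.11. Control replicate 2 and early replicate 1, which shared a flow cell, stood at 58.7 and 111 CPM.

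In the large neuron types no stage difference was called. For Nefl in D1 neurons, the class B pools stood at 385 in control, 458 and 468 in early and 445 CPM in late, and the class A pools at 328 in control and 339.5 in late. Ina in D2 neurons stood at 224 and 223 CPM in control, 181 and 251 in early, and 176 and 355 in late pools, the 2 late pools lying at both ends of the range. Its change from early to late was 0.50 (SE 0.223, adjusted p 0.474 in edgeR). Without control replicate 1, control replicate 2 or late replicate 1 it was 0.72, at adjusted p of 7.47e-06 to 8.54e-06. With the kit covariate, each of these fits sets late replicate 2 alone against the 2 early pools, whose spread is the only one between pools, so they are 1 estimate from 1 late pool and not separate tests. In motor cortex none of 150 tests was called or reached an unadjusted p under 0.05. In striatal neuroblasts Ina changed by -0.82 from control to late (SE 0.187, adjusted p 0.142). Without early replicate 1 or early replicate 2 it was -0.84 and was called. Those fits keep both pools of control and late, but the lone early pool adds nothing to the spread. With the kit covariate 1 residual degree of freedom is left, so they are no firmer than the fit to all pools. Without control replicate 2 or late replicate 2 the change was -1.34 and was called. There the kit covariate leaves 1 class A pool against 1 class A pool, with the spread taken from the 2 early pools alone. Its pools stood at 56.1 and 148 CPM in control, 98.1 and 112 in early and 22.9 and 102 in late, and the lowest 2 were of class A.

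**Figure D5:**
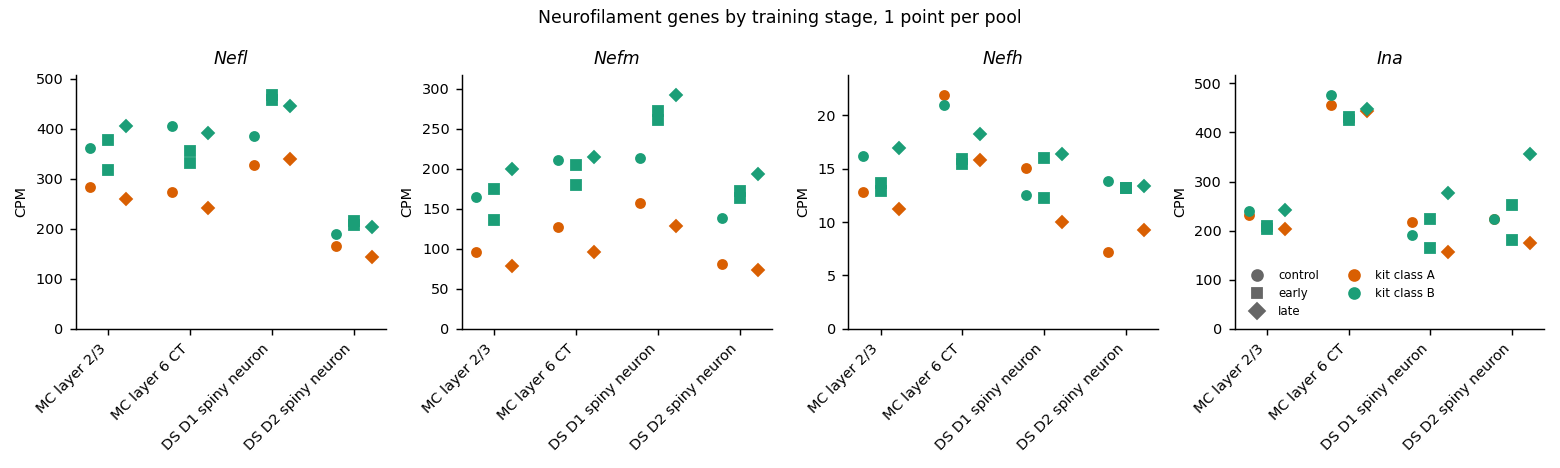
Level in CPM (y axis) of each gene in 4 neuron types (x axis) by stage (shape) and kit class (colour), 1 point per pool. For Nefl and Nefm the class A pools lie under the class B pools of the same type at every stage that holds both.

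The last comparison set contralateral against ipsilateral libraries of trained mice, 4 pools in each region, with a term for the pool. None of 80 tests was called (5 at an unadjusted p under 0.05, 0 in DESeq2), where 0.0370% of all tests were called in cortex and 0.0316% in striatum. The smallest adjusted p among the 4 genes was 0.560, for Ina in Lamp5 interneurons (change -0.33, SE 0.082). Of the other lists, Pvalb (0.39, adjusted p 0.0293) and Sst (0.31, adjusted p 0.00232) were called higher in contralateral cortical interneurons, all types summed, and Nxph1 lower in glutamatergic neurons (-0.47, adjusted p 8.95e-04).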

How the data were processed

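The deposited matrices are raw UMI counts, genes by barcodes, which the authors produced in Cell Ranger 3.1.0 per the submitters' processing notes (the file headers give software version 3.0.2) on GRCm38 (mm10). The annotation and the use of strand are not given in the sources used here. Libraries were prepared with version 2 or 3 of the 10x Genomics kit per the labels' protocols, and the version of each library was inferred from shared barcodes.

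Barcodes under 500 genes or 1000 UMIs, or over 20% mitochondrial UMIs, were dropped, and the top 0.8% per 1000 cells by Scrublet score were removed (scanpy 1.11.5), which left 99627 cells. Cells were clustered on 2000 variable genes, 40 components and 20 neighbours (leidenalg 0.10.2, resolution 1.5). Clusters of at least 30 cells were named when at least 3 markers were found in 20% of cells at 2 times the reference level, rules that were adjusted with the clusters in view. Members and gene lists were chosen with earlier results of these data known. The genes named are the 4 members, the 5 genes most like each, and listed genes with an adjusted p under 0.05, of which 1 is not reported here.

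UMIs were summed per pool and type. Sums were tested by quasi-likelihood in edgeR 4.0.16 after filterByExpr and TMM scaling, checked on simulated counts, with at least 20 cells per pool, adjusting p over all genes of a type. Replicates are numbered in record order, which pairs nothing, and separate pools are separate mice. Each SE is the size of the log2 change divided by the square root of the F statistic of the edgeR test. It is not a spread over pools. Contrasts between stages share pools. Alternatives were RLE factors, no filter, DESeq2 1.42.0, a strict cell filter (1000 genes, 2000 UMIs, 10% mitochondrial), other covariates, thinning to 2000 UMIs, other reporter definitions, resolution 1.0 and each pool left out.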

Additional observations from a re-analysis of the deposited data

Results flagged for a closer look

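In 8 of 139 groups of 4 to 6 pools, 1 pool stood apart from the others by Dixon's test, where chance flags about 1 in 20 groups. Striatal cholinergic neurons gave 2 of them, with Nefl at 32.7 CPM in early replicate 2 (27 UMIs) against 2.59 to 12.7 elsewhere, and Nefh at 64.8 CPM in early replicate 1 (25 UMIs) against 24.9 to 38.8. Nefh in striatal cycling progenitors was 0.438 CPM in early replicate 2, from 1 UMI, and 0 elsewhere. Ina was 294 CPM in eccentric spiny neurons of striatal late replicate 2 (201 to 222 elsewhere), 211 in layer 6 intratelencephalic neurons of cortical early replicate 2 (243 to 255 elsewhere) and 438 in parvalbumin interneurons of cortical control replicate 2 (333 to 353 elsewhere). Nefm in cortical neuroblasts was 69.3 CPM in control replicate 2, from 5 UMIs, against 13.6 to 19.0. The log2 reporter ratio of Nefm in Rorb neurons was 0.455 in cortical late replicate 1, against -0.09 to -0.01 in the other trained pools.

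The reporter ratio of Nefm had opposite signs in the 2 regions of trained mice. It was -0.236 on average in cortical glutamatergic neurons, from -0.41 to -0.06, and 0.09 to 0.27 in striatal spiny neurons. The cortical group joins types whose mix was not held fixed, with means such as -0.55 in corticothalamic and 0.07 in Rorb neurons. The difference between regions was not tested, and region and Cre driver cannot be told apart. The ratio of Nefh in unnamed spiny neurons was -0.844 on average in the trained pools that had a Nefh UMI among positive cells, and 0.38 and 1.42 in the control pools. It rests on 16 Nefh UMIs in all positive cells, and the difference was not tested.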

How the results depend on the processing

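Of the 273 stage tests 1 was called, and 0 were called with DESeq2, without the kit covariate and with the strict cell filter. The count was also 0 with the replicate block in place of the kit class, but that block follows record order and pairs nothing. Leaving out 1 pool gave 1 to 4 calls, and 4 without striatal control replicate 1, control replicate 2 or late replicate 1, the added ones being Ina in D1 or D2 spiny neurons or neuroblasts. In these 3 fits with the kit covariate the spread between pools comes from the 2 early pools alone, and a lone pool is assumed to vary like them. DESeq2 gave no adjusted p for Nefm in unnamed spiny or in corticothalamic neurons. The cortical reporter tests gave 3 calls, 2 with DESeq2, 0 with cells thinned to 2000 UMIs and 0 with no replicate block, which ignores the pairing within pools. They gave 1 with positivity at 2 reporter UMIs (Nefl, higher in all glutamatergic neurons) and 3 to 4 without 1 pool. The added one was Nefm in unnamed glutamatergic neurons without early replicate 1. The hemisphere tests gave 0 calls under each alternative run, and so did the control striatal reporter tests, for which leaving out a pool leaves no residual degrees of freedom.

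The mean log2 ratio in trained spiny neurons moved by more than its SD for Nefl (0.130) to 0.237 at 2 reporter UMIs, 0.276 with tdtomato alone, 0.0929 with cells thinned to 2000 UMIs, 0.0908 in D1 neurons and 0.0944 without cells holding a marker UMI of other neurons. Nefm (0.170) moved to 0.399 at 2 reporter UMIs and 0.425 with tdtomato alone, which left 3 pools, and there Nefh was 0.206 and Ina 0.0482. Thinning left out 335 of 3057 positive and 2105 of 13805 negative cells. Leaving out 1 pool gave 0.121 to 0.142 for Nefl, 0.136 to 0.196 for Nefm, 0.108 to 0.174 for Ina and -0.146 to 0.00271 for Nefh. Of 96 levels by type, 6 stayed within 1 SD when the median over cells replaced the pooled level, which is 0 for Nefh in 22 of 24 types. Low levels rest on few UMIs per pool.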

Other observations

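Outside neurons, Ina was found in oligodendrocyte precursors, the dividing glia that give rise to myelinating cells. It stood at 47.9 ± 2.68 CPM in striatum and 45.7 ± 8.41 in cortex (SD, n = 6 each), in 9.39% and 9.37% of cells, against 4.76 ± 2.27 and 6.49 ± 2.35 CPM in microglia at 0.782% and 1.21% of cells. Median depth was 2124 and 1975 UMIs in the precursors and 1822 and 1824 in microglia. Nefm in the same precursors was 17.7 ± 5.38 and 13.8 ± 4.14 CPM, against 4.06 ± 1.93 and 3.51 ± 1.82 in microglia (SD, n = 6 each). In striatum, Nefm was 2.90 ± 3.03 CPM in astrocytes and 3.91 ± 3.23 in endothelial cells (SD, n = 6 each). Striatal fibroblasts had 20.4 ± 30.1 CPM of Nefm, from 16 UMIs, and 25.1 ± 24.3 of Ina, from 15 (SD, n = 6 each). The level of Nefm was thus not particular to the precursors. Nefl was 7.23 ± 5.70 and 7.18 ± 1.37 CPM in the precursors and 5.81 ± 2.75 and 8.67 ± 3.50 in microglia, with overlapping values. In oligodendrocytes, Ina was 11.5 ± 9.31 CPM in striatum (SD, n = 4) and 1.88 ± 2.66 in cortex (SD, n = 2).

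In endothelial cells of motor cortex, Nefl stood at 119.9 CPM in control replicate 1 (36 UMIs in 95 cells) and at 7.12 to 45.2 in the other 5 pools, and Ina at 103 and at 9.32 to 46.2. The 2 class A pools averaged 82.6 CPM of Nefl and 74.7 of Ina, and the class B pools 26.0 and 18.6. Endothelial cells of striatum had 6.37 ± 4.40 and 6.25 ± 3.56 CPM (SD, n = 6 each).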
